A study of Rattus norvegicus with 15 samples.

Results

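The enzymes described here take superoxide and peroxides out of cells. They were chosen by gene symbol, as every probe set that the platform annotation gives to Gpx1, Gpx3, Gpx4, Gstm1, Cat, Sod1, Sod2, Prdx1, Prdx2 or Txn1 alone. On this array a transcript is read by sets of short oligonucleotides, called probe sets, and each set gives 1 signal. The rule found 18 probe sets among the 8799 of the table, for 9 of the 10 genes and of the 4736 genes named by a single symbol. No probe set carries the single symbol Txn1, the cytosolic thioredoxin, so it was not analysed here. A further probe set lists Gpx4 beside other genes, 10 symbols in all, and was left out.

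The arrays held total RNA of rat neurons collected by laser capture microdissection (LCM), in which a laser lifts chosen cells from a tissue section. There were 8 arrays of the substantia nigra pars compacta (SNc) and 7 of the ventral tegmental area (VTA), neighbouring midbrain regions that both hold dopamine neurons. The labels name no treatment, genotype, strain, age or sex, and do not say how neurons were recognised or how many animals and cells stood behind an array. Nothing in them says that the arrays came from separate animals, so the p-values measure only the spread between these arrays, which may be technical. The title names Parkinson's disease, which kills dopamine neurons of the SNc more than those of the VTA, and so points to a comparison of the vulnerable region with the spared one.

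Superoxide, which leaks from mitochondria, is turned into hydrogen peroxide by superoxide dismutases, Sod1 in the cytosol and Sod2 in the mitochondrial matrix. Peroxide is then broken down by catalase in peroxisomes, by glutathione peroxidases at the expense of glutathione, and by peroxiredoxins at the expense of thioredoxin. Dopamine neurons carry a peroxide load of their own, because monoamine oxidase makes peroxide as it degrades dopamine and because dopamine oxidises to reactive quinones.

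The captured material of each region gave strong dopamine neuron signals and held glial transcripts as well. Th, tyrosine hydroxylase, averaged 6615 in SNc and 7193 in VTA. All 9 dopamine neuron markers lay above the low-signal filter, with a summed signal of 26850 to 33820 in SNc and 22690 to 32440 in VTA. Of the astrocyte markers 9 of 10 had a probe set and 8 lay above the filter, with a sum of 8067 to 11200 in SNc and 7803 to 14290 in VTA, while Gja1 was near 0 on every array (highest 6.129). Of the oligodendrocyte markers 6 of 8 had a probe set, all 6 above the filter, with a sum of 5512 to 9772 in SNc and 7868 to 11540 in VTA (exact permutation p = 0.028, two-sided). In the fit described below 0 of these 6 passed, and 5 had the lower mean in SNc. The same permutation test gave p = 0.14 for the dopamine neuron sum and 0.46 for the astrocyte sum. The p-values of marker sums were not adjusted for the number of marker lists. Array medians were 41.4 ± 3.04 in SNc and 45.1 ± 1.74 in VTA (SD, n = 8 and 7, exact permutation p = 0.016). The 3' to 5' ratio of the actin control ran from 6.135 to 15.37 over the 15 arrays, so 3' signal was the stronger on each. The cause of this was not tested.

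Each value is the authors' signal on a linear scale, already brought to one level per array. Each difference is the SNc mean minus the VTA mean of log2(signal + 16), so a negative one means a lower signal in SNc, and folds are on that scale too. The offset makes differences of dim probe sets smaller. A low-signal filter removed 40% of probe sets, those with a mean under 28.47, and the other 5244 were tested with limma, with Benjamini-Hochberg adjustment over all of them and a threshold of 0.05. Of the 18 antioxidant probe sets 15 were tested. Their difference had a standard error (SE) of 0.11 to 0.23.

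For Gpx3 and Cat 1 probe set each passed, with a lower signal in SNc than in VTA. The other tested probe set of Cat, the signals of Gstm1 and 1 probe set of Sod1 lay in the same direction without passing. Gpx4 lay the other way without passing, and the probe sets of Gpx1, Sod2, Prdx1 and Prdx2 had small differences that did not pass. Of the 15 tested probe sets, 2 passed, both lower in SNc. Over all 5244 probe sets 1.98% passed, 0.839% with the higher and 1.14% with the lower signal in SNc. The 2 calls are 13.3% of the 15, above that background, but both lay close to the threshold. Before adjustment, a p under 0.05 was seen for 7 of the 15, 1 higher and 6 lower in SNc. Of all probe sets 15.7% reached it, 5.89% with the higher and 9.76% with the lower signal in SNc. The median difference was -0.16 over the 15 and -0.04 over all probe sets tested, and 11 of the 15 were negative, against 56.7% of all. These counts describe the list and were not tested. The list was chosen with earlier results of these data known, and several genes have more than 1 probe set. A share above that of all probe sets is therefore no evidence about the list. The arrays of the regions overlapped in each of the 15, as in nearly all probe sets, of which 0.858% did not overlap. In captured tissue, fewer cells of a type and less RNA per cell cannot be told apart.

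**Figure D1:**
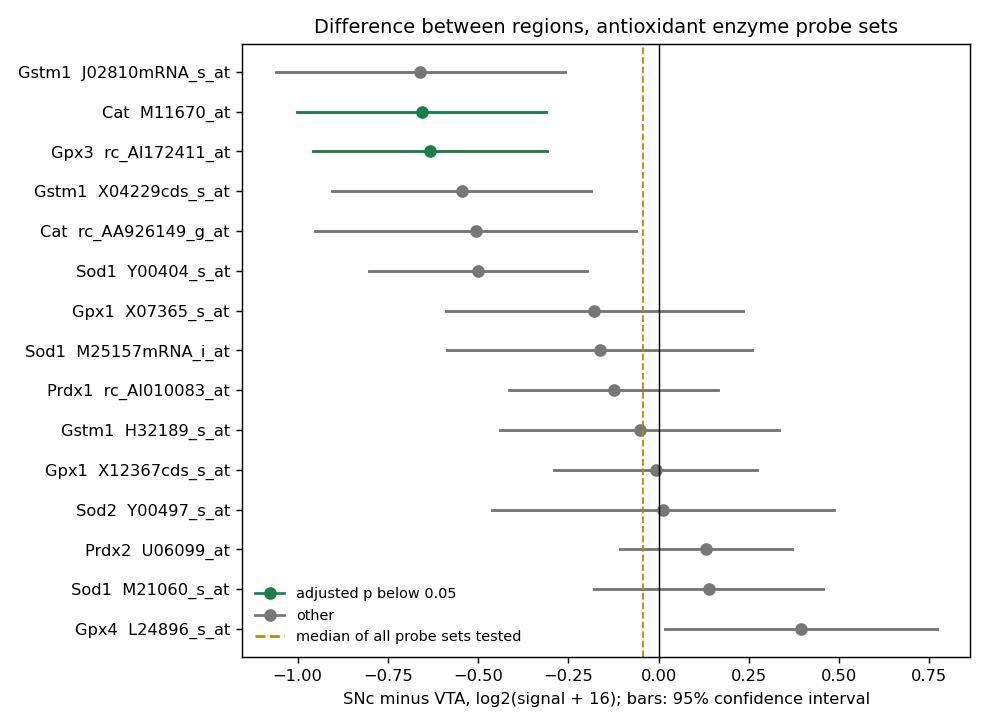
Difference between SNc and VTA for each of the 15 tested probe sets, on the log2(signal + 16) scale, with 95% confidence intervals; the dashed line is the median of all probe sets tested. Gpx3 (-0.63) and one Cat probe set (-0.66) are the 2 that passed, and Gpx4 (0.39) lies farthest to the right.

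The 3 glutathione peroxidases chosen here, Gpx1, Gpx3 and Gpx4, carry selenocysteine at their active site and differ in where they act. Gpx3 is the secreted form, known from plasma, where the kidney supplies most of it. Its brighter probe set, rc_AI172411_at, had a lowest, median and highest signal of 80.8, 113 and 154 in SNc, against 133, 193 and 230 in VTA. In 6 of the 7 VTA arrays the signal was above that of any SNc array, and VTA 8 was the exception. Means were 118 ± 26.8 in SNc and 191 ± 33.4 in VTA (SD, n = 8 and 7). The log2 difference was -0.63 (SE 0.15, limma adjusted p = 0.0395), or 0.645 times the VTA level. All 8 SNc arrays lay below the VTA mean. The other probe set, D00680_at, did not reach the filter, with 4.02 to 18.7 in SNc and 3.79 to 24.3 in VTA, and it gave 0.07 in the fit without the filter (adjusted p = 0.891).

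The Gpx3 call sat close to the threshold. It did not survive the removal of any 1 of 11 arrays (SNc 2, 3, 5, 6 and 8 and VTA 1, 2, 3, 4, 5 and 6), with an adjusted p of up to 0.0881. Over the removal of each of the 15 arrays in turn, the difference stayed between -0.71 and -0.57. With each array centred on its median the difference was -0.54 (adjusted p = 0.079).

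Gpx4 reduces lipid hydroperoxides within membranes and protects cells from ferroptosis, an iron-dependent death. Its probe set had 834, 1202 and 2180 as lowest, median and highest signal in SNc, against 733, 1003 and 1085 in VTA. The SNc arrays were both higher and more spread, with SNc 4 far above the rest, and the regions overlapped. The log2 difference was 0.39 (SE 0.18) and did not pass (adjusted p = 0.296, unadjusted p = 0.0417).

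Within an array, the ratio of Gpx4 to Gpx3 was higher on most SNc arrays than on VTA arrays. Such a ratio does not depend on how arrays were scaled, though its absolute size means nothing because the probes differ. Gpx4 over Gpx3 had a lowest, median and highest value of 6.12, 11.7 and 15.7 in SNc, against 4.13, 5.07 and 6.38 in VTA. The ratio was above the highest VTA array in 7 of 8 SNc arrays. The pair was picked after the values were seen, so no test is given.

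**Figure D2:**
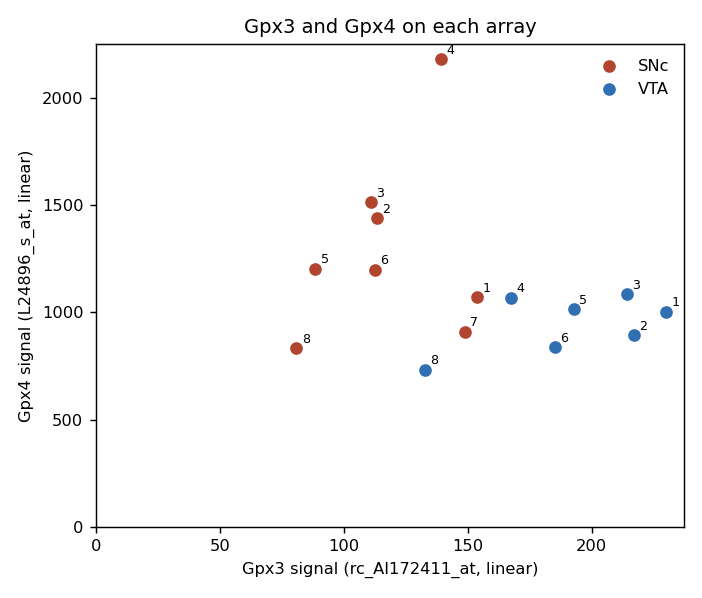
Signal of Gpx3 (x axis, linear) and Gpx4 (y axis, linear) on each array, numbered by replicate. SNc arrays lie to the left, at Gpx3 signals of 80.8 to 154, and reach 2180 for Gpx4; VTA arrays lie at Gpx3 signals of 133 to 230 and Gpx4 signals of no more than 1085.

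Gpx1 is the common peroxidase of cytosol and mitochondria. By X12367cds_s_at it was 406 ± 49.1 in SNc and 412 ± 70.3 in VTA, a log2 difference of -0.01 with a 95% interval of -0.29 to 0.27. X07365_s_at gave -0.18 (interval -0.59 to 0.23), with signals of 169 to 465 in SNc and 246 to 443 in VTA. The third probe set, M21210_i_at, was at most 5.86 on any array and was not tested.

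Cat encodes catalase, the peroxide-degrading enzyme of peroxisomes. Probe set M11670_at had 48.2, 63.0 and 92.7 as lowest, median and highest signal in SNc, against 73.1, 109 and 155 in VTA. Of the 7 VTA arrays, 5 were above every SNc array, and VTA 5 and VTA 8 fell among the SNc values. The log2 difference was -0.66 (SE 0.17, limma adjusted p = 0.0445), with all 8 SNc arrays below the VTA mean. A brighter probe set, rc_AA926149_g_at, had 144 to 364 in SNc and 215 to 440 in VTA and a difference of -0.51 (SE 0.21) that did not pass (adjusted p = 0.249). The dimmest, rc_AA926149_at, was not tested and gave -0.31 without the filter, with a signal of 2.62 to 29.5 in SNc and 9.65 to 49.8 in VTA. All 3 Cat probe sets thus had a lower mean in SNc.

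The Cat call was no firmer than that of Gpx3. Removing any 1 of 11 arrays (SNc 1, 2, 3, 4, 5 and 7 and VTA 1, 2, 3, 4 and 6) ended it, with an adjusted p of up to 0.0981. Over all 15 removals the difference lay between -0.74 and -0.59. It was also lost with no filter on low signals (adjusted p = 0.0525) and with median centring (-0.56, adjusted p = 0.0837).

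Gstm1 is a mu-class glutathione S-transferase, which couples glutathione to electrophiles such as quinones and products of lipid oxidation. J02810mRNA_s_at had 110, 174 and 256 as lowest, median and highest signal in SNc, against 171, 281 and 398 in VTA. All 8 SNc arrays lay below the VTA mean, and 4 VTA arrays lay above every SNc array. The log2 difference of -0.66 (SE 0.19) was as large as that of Cat but had a wider spread and did not pass (adjusted p = 0.0857). X04229cds_s_at gave -0.55 (SE 0.17, adjusted p = 0.112), with 44.5 to 114 in SNc and 65.5 to 128 in VTA. H32189_s_at, at 46.4 ± 14.1 in SNc and 49.1 ± 16.5 in VTA, gave -0.05, and its sign turned with quantile normalization and with median centring. The suffix _s_at marks probe sets that can match several related transcripts, so signal from other mu-class genes cannot be told from that of Gstm1. The tested probe sets of Gpx1, Gpx4 and Sod2 carry this suffix too, as do M21060_s_at and Y00404_s_at of Sod1.

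Single arrays decided on which side of the threshold Gstm1 fell. Without VTA 8, J02810mRNA_s_at passed at -0.76 (adjusted p = 0.0403). Without SNc 4, X04229cds_s_at passed at -0.65 (adjusted p = 0.0384).

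**Figure D3:**
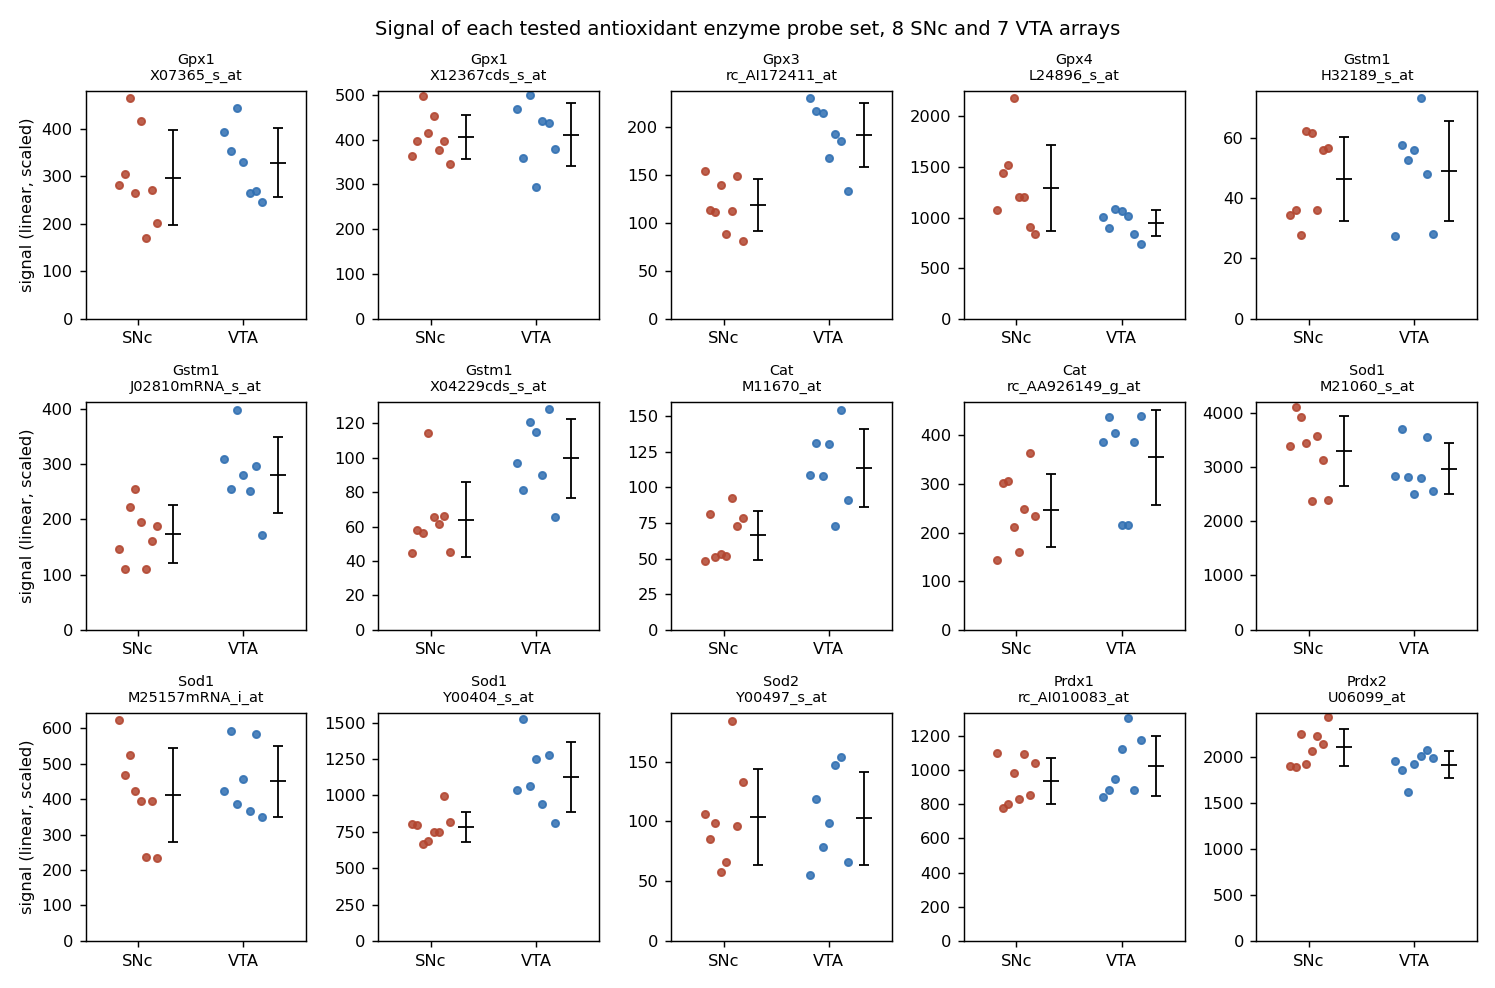
Signal (y axis, linear, each panel from 0) of the 15 tested probe sets on the 8 SNc arrays and the 7 VTA arrays; points are arrays, black bars the mean and SD. Gpx3 averaged 118 in SNc and 191 in VTA, and Cat by M11670_at 66.2 in SNc and 114 in VTA, while the points of Sod2 and of Gpx1 lie over the same range in both regions.

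The superoxide dismutases were measured by 4 probe sets, and those of Sod1, the copper-zinc enzyme, disagreed. Y00404_s_at had 663, 775 and 993 as lowest, median and highest signal in SNc, against 808, 1062 and 1521 in VTA, with 6 of 8 SNc arrays below every VTA array. Its log2 difference was -0.50 (SE 0.14) and did not pass (adjusted p = 0.0821), though it did without VTA 8 (-0.58, adjusted p = 0.0408). M21060_s_at, with 2372 to 4108 in SNc and 2510 to 3696 in VTA, had a difference of the other sign, 0.14 (interval -0.18 to 0.45). M25157mRNA_i_at gave -0.16 (interval -0.59 to 0.26).

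The 2 Sod1 probe sets farthest apart in difference were also set against each other on each array. M21060_s_at over Y00404_s_at was 2.91 to 5.91 in SNc, with a median of 4.51, against 2.01 to 3.17 in VTA, with a median of 2.73. All 8 SNc arrays lay above the VTA median, and 5 above the highest VTA array. The pair holds the highest and the lowest difference of the 3 probe sets. A higher ratio in SNc follows from that choice, so no test is given. As the probe sets disagreed, no direction is given for Sod1 as a gene. The mean over its 3 probe sets differed by -0.18 (exact permutation p = 0.18). Sod2, the manganese enzyme of mitochondria, had 57.4, 97.5 and 184 as lowest, median and highest signal in SNc, against 54.9, 98.7 and 154 in VTA. Its difference of 0.01 had an interval of -0.46 to 0.49, the widest of the 15.

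Peroxiredoxins 1 and 2 are abundant cytosolic enzymes that reduce peroxide and are restored by thioredoxin. Prdx1 was 935 ± 134 in SNc and 1024 ± 178 in VTA, a log2 difference of -0.12 (interval -0.41 to 0.16). Prdx2, long known from red blood cells and neurons, was 2105 ± 197 in SNc and 1919 ± 149 in VTA. Its difference of 0.13 (interval -0.11 to 0.37) had the smallest SE of the 15, 0.11, and did not pass (adjusted p = 0.614). These intervals exclude a difference as large as those of Gpx3 and Cat.

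**Figure D4:**
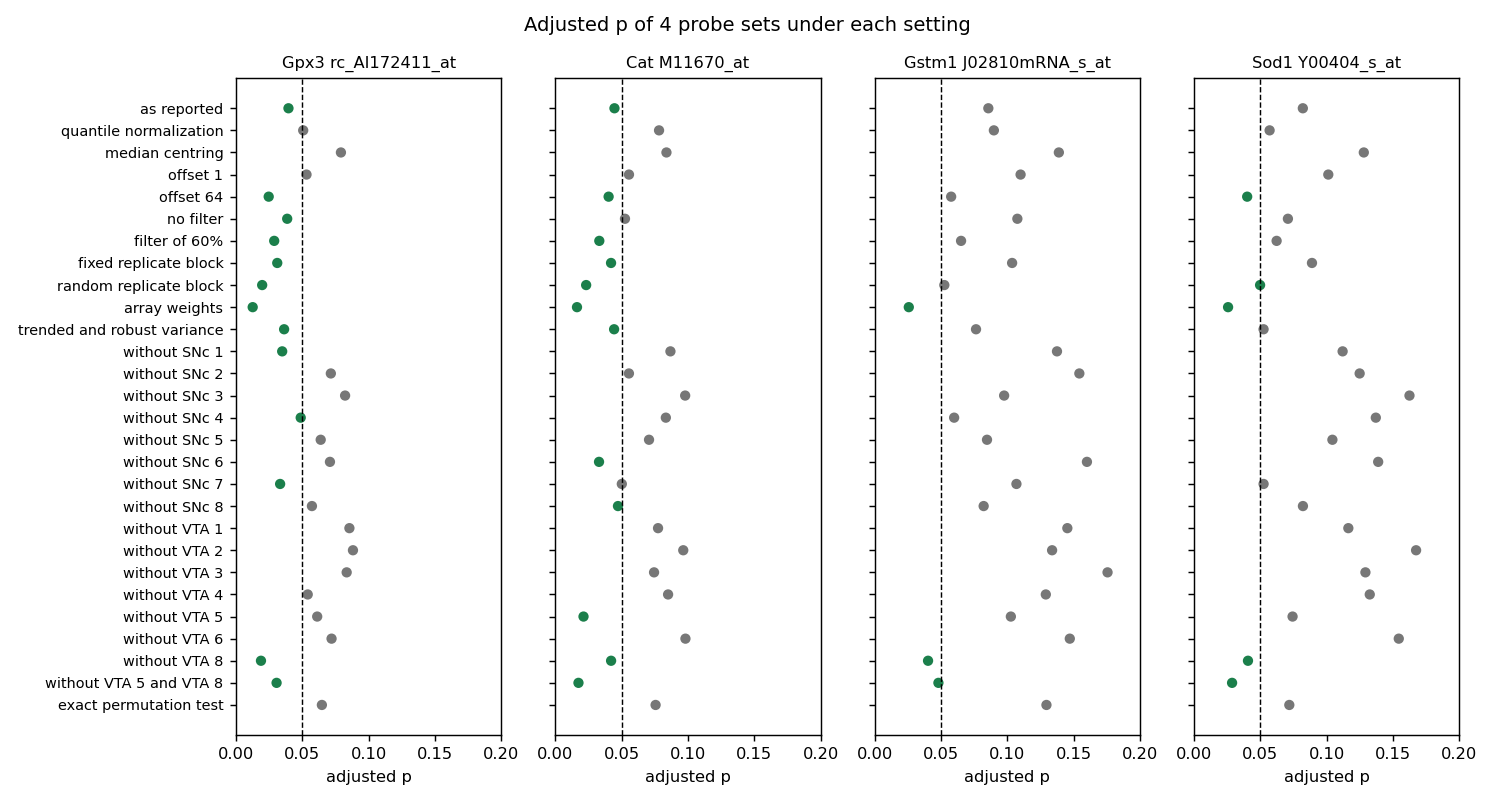
Adjusted p (x axis) of 4 probe sets in the reported fit and under each of 27 other settings (y axis); the dashed line is the threshold of 0.05. Gpx3 passed under 12 of the 27, Cat under 11, Gstm1 (J02810mRNA_s_at) under 3 and Sod1 (Y00404_s_at) under 5.

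Gpx3 and Cat kept their direction in every setting run, but not their calls. Over the 27 settings the log2 difference of Gpx3 stayed between -0.72 and -0.49 and that of Cat (M11670_at) between -0.81 and -0.44. Over all probe sets the split of calls was 44 higher and 60 lower in SNc, and with median centring 67 higher and 38 lower in SNc. Under that centring and under quantile normalization 0 of the 15 antioxidant probe sets passed in limma. Without the filter 1 of the 18, Gpx3, passed, where 1.16% of all 8740 probe sets did. In the exact permutation test over all 6435 ways to split the arrays, Gpx3 had p = 0.00155 and Cat p = 0.00218, which missed the threshold after adjustment over all probe sets (0.0647 and 0.0756), where 1.3% of all passed. By the mean of each gene's probe sets 0 of the 9 genes passed that test, a count near the 1.4% of all genes that did.

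Markers of other cell types were set beside Gpx3 and Cat. Those of vessels and blood, of which 8 of 11 had a probe set and 6 lay above the filter, summed to 380 to 868 in SNc and 512 to 2498 in VTA (exact permutation p = 0.0786), with VTA 3 the highest. Vwf and Hba-a3 were among those below the filter, at 29.6 and 18.3 on average in SNc and 17.8 and 24.3 in VTA. Without VTA 3 the difference was -0.60 for Gpx3 and -0.66 for Cat (adjusted p = 0.0834 and 0.0744). Microglial markers were dim, with 2 of the 7 that had a probe set above the filter and a sum of 104 to 196 in SNc and 121 to 227 in VTA (exact permutation p = 0.54). GABA neuron markers, all 4 above the filter, summed to 909 to 1848 in SNc and 551 to 1022 in VTA (exact permutation p = 0.00155). The markers were not alike in this. Gad1 (1.45, limma adjusted p = 0.0016) and Pvalb (1.34, adjusted p = 0.029) passed. Gad2 (0.23, adjusted p = 0.724) and Slc32a1 (0.07, adjusted p = 0.901) did not. The part of the glial, vessel, blood and GABA neuron signals in the antioxidant differences was not tested.

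Within regions, correlations between different antioxidant enzymes were spread around 0. With the region means removed, the 8 pairs of probe sets for the same gene had Pearson correlations of 0.222 to 0.603 over the 15 arrays, all positive. The 97 pairs from different genes ran from -0.662 to 0.674 with a median of 0.01, and 49 were positive. The highest was Gpx4 with X04229cds_s_at of Gstm1, both of which were highest among SNc arrays in SNc 4, and the lowest was X07365_s_at of Gpx1 with Prdx1. The arrays share their scaling, so these are descriptions.

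The genes that followed a member most closely were found for Gpx3 and Gstm1, which had the smallest p by their brightest probe set. For Gpx3 they were Cxcl6, a chemokine (0.846), Pakap (0.795) and Tshr, the thyrotropin receptor (0.779), by Pearson correlation over 15 arrays with region means removed. For Gstm1 they were C10h17orf49 (0.8), Hsf1, the heat shock transcription factor (0.797), and Tbp, the TATA-binding protein (0.797). None of the 6 passed between the regions, with log2 differences of -0.29 to 0.16. They are the highest of a search over all tested probe sets of other genes named by a single symbol. So wide a search over 15 arrays gives high correlations by chance alone, so no link to the members is drawn.

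Gpx3, Cat and Gstm1, the genes with the most negative differences, were looked at in sequence just before their start sites, together with Prdx1. Sequences are from RefSeq, build GRCr8, and cover 250 bases. The motifs searched, on both strands, were the core of the antioxidant response element bound by NRF2 (TGACNNNGC), the GC box (GGGCGG) and the CCAAT box (CCAAT). Matches are in capitals and each sequence is written 5' to 3' on the strand of the gene, whose windows are chr10:39529085-39529334 (plus strand) for Gpx3, chr3:110329527-110329776 (minus) for Cat, chr2:198343384-198343633 (minus) for Gstm1 and chr5:135383656-135383905 (plus) for Prdx1.
Gpx3: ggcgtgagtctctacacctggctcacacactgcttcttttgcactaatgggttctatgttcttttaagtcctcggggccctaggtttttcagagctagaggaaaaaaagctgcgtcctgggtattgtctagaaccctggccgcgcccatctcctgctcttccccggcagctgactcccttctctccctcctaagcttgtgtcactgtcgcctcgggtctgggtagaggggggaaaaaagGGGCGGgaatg
Cat: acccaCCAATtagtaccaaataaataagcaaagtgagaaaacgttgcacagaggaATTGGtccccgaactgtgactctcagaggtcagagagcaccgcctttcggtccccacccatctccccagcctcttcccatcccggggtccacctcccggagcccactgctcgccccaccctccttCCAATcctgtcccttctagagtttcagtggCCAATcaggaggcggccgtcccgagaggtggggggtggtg
Gstm1: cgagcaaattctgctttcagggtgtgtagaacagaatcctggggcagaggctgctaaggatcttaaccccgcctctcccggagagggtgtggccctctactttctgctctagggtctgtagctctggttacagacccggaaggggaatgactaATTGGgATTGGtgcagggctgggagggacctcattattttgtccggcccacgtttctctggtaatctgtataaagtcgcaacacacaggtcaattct
Prdx1: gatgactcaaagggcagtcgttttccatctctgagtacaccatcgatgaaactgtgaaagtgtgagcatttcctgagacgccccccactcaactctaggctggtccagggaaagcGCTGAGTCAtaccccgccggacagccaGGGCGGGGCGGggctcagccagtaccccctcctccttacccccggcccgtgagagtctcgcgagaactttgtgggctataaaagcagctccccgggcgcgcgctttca

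None of the motifs was found in the windows of all 3 genes. Cat held 4 CCAAT boxes and Gstm1 2, both without a GC box, and Gpx3 held 1 GC box and no CCAAT box. The antioxidant response element core was in none of these 3 windows and in 2 of the 12 windows of all 10 genes, Gpx4 having 3 windows. Those were Prdx1, as GCTGAGTCA on the opposite strand from 135 to 127 bases before the start, and Sod2, as GCAGGGTCA from 35 to 27 bases before it. Of all 33469 windows 10.1% held that core, 30.5% a GC box and 34.0% a CCAAT box. Among the 12 windows 9 held a GC box and 5 a CCAAT box, and all 12 had more G and C than the median window, 52.4% to 71.6% against 51.2%. Of the 3 Gpx4 windows 2 overlap and share GC and CCAAT boxes, so the same bases enter these counts more than once. A match is a description of the letters only.

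Genes around the same reactions were described from 4 lists. In the glutathione list, 16 of 24 genes with a probe set were tested by their brightest one, 12 with the lower signal in SNc, and 0 passed in limma, and 1 before adjustment, a smaller share than the 15.7% of all probe sets. Of all probe sets 56.7% had the lower signal in SNc. The exact permutation test also gave 0 for each of the 4 lists. The smallest p belonged to Gstm2, another mu-class transferase, at 65.4 ± 16.6 in SNc and 84.4 ± 10.4 in VTA (-0.32, SE 0.14, adjusted p = 0.285); the second, dimmer probe set of Gstm2 gave 0.29. Hpgds, a glutathione-dependent prostaglandin synthase, gave -0.30, Gstm5 gave -0.25, and Gss, which completes the synthesis of glutathione, gave 0.33. The dimmer probe sets of Gstm5 and Gss gave -0.28 and 0.59. That of Gss had a limma p of 0.0498 before adjustment (adjusted p = 0.319). The counts of this list leave out such dimmer probe sets.

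Among relatives of the peroxiredoxins, thioredoxin and superoxide dismutases, 10 of 11 genes were tested and 0 passed in limma, and 2 before adjustment, a share near the 15.7% of all probe sets. Park7, or DJ-1, a redox-sensitive protein mutated in familial parkinsonism, had 1266 ± 287 in SNc and 932 ± 197 in VTA (0.43, SE 0.17, adjusted p = 0.22), and its other probe set gave 0.42. Txn2, the mitochondrial thioredoxin, had 682 ± 154 in SNc and 842 ± 69.6 in VTA (-0.32, SE 0.14, adjusted p = 0.274). Prdx6, a peroxiredoxin that also reduces phospholipid peroxides, gave -0.40, and Txnl1, a thioredoxin-like protein, 0.24. Values above and below 0 were thus mixed within the list, with 4 positive and 6 negative, close to the 56.7% negative of all probe sets.

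Enzymes that supply NADPH, which restores both glutathione and thioredoxin, had the higher signal in SNc in 5 of 6 cases, with a median of 0.17, but 0 passed in limma, and before adjustment 1 did, near the 15.7% of all probe sets. The median over all probe sets was -0.04, and 56.7% of them were negative. The gene that passed before adjustment was Me1, malic enzyme, at 464 ± 106 in SNc and 338 ± 66.9 in VTA (0.43, SE 0.17, adjusted p = 0.22), while its 3 other probe sets gave 0.05, -0.08 and -0.10. Idh1, the cytosolic isocitrate dehydrogenase, gave 0.34, and Taldo1 and Tkt, of the pentose phosphate pathway, 0.18 and 0.15. Of the 6 genes tested in the NRF2 list, which holds its partners, targets and related enzymes, 0 passed in limma, before adjustment as well. Nfe2l2, which encodes NRF2, gave -0.26 (SE 0.31), Mafk, a partner of it, 0.28, and Ephx1, a target of it, -0.22. Hmox2, the constitutive heme oxygenase, which the list holds beside the inducible Hmox1, gave -0.10.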

How the data were processed

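Total RNA of laser-captured rat neurons was measured on 15 Affymetrix arrays, 8 of SNc and 7 of VTA, grouped by their titles. The deposited values are intensities per probe set on a linear scale. From these values, the 2% trimmed mean is 150.2 on every array, so scaling preceded deposit. For software, background correction and amplification, the steps were not given in the sources used here, and detection calls were not used. Of 8799 probe sets, 59 controls were left out. Of the rest, 7006 had 1 gene symbol, 308 several and 1426 none; the 9 member gene IDs were found in the GRCr8 gene table with unchanged symbols. Tests used limma 3.58.1 in R 4.3.3 (lmFit, eBayes, two-sided), without covariates, and were tested on simulated data. The number of arrays limits precision. Members and lists were chosen with earlier results of these data known. All member probe sets are described; other list genes are named if they passed or were among the 4 smallest p of their list, by the brightest tested probe set. The alternatives were offsets of 1 and 64, a filter of 60% or none, median centring, quantile normalization, replicate blocks, array weights, trended and robust variance, an exact permutation test, probe set means and each array left out. Leaving out VTA 5 and VTA 8, which correlated least with the others (median 0.909 and 0.917), was added after seeing the data.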

Additional observations from a re-analysis of the deposited data

Results flagged for a closer look

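In 36 groups of arrays, 1 for each of the 18 probe sets and each region, 2 held an array that stood far from the others, and chance alone marks about 1 group in 20. Gstm1 by X04229cds_s_at was 114.2 in SNc 4, against 44.49 to 66.36 in the other SNc arrays. Gpx3 by its dim probe set D00680_at was 24.26 in VTA 2, against 3.788 to 9.575 in the other VTA arrays, a signal below the filter.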

How the results depend on the processing

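Of the 15 antioxidant probe sets, 2 passed; 0 did with quantile normalization, median centring, an offset of 1 or the exact permutation test, 1 without the filter, 5 with array weights, and 4 without VTA 5 and VTA 8 together. Leaving out single arrays gave 0 to 4. Over all probe sets 104 passed; 61 did with an offset of 1, 68 with the exact permutation test, 185 with array weights, and 57 to 112 without single arrays, under 70 without SNc 2, 3 or 4 or VTA 1, 2, 3, 5 or 6. The median antioxidant difference stayed between -0.22 and -0.10 without single arrays. Signs turned only in probe sets near 0 that never passed: X12367cds_s_at of Gpx1 (0.0847 with median centring, -0.0812 to 0.0399 without single arrays), H32189_s_at of Gstm1 (0.0434 with quantile normalization, 0.0407 with median centring, -0.142 to 0.0315 without single arrays) and Sod2 (-0.103 to 0.111 without single arrays). The causes were not tested. By the mean of a gene's probe sets 0 of the 9 genes passed the exact permutation test, where 1.4% of all genes did. Its adjusted p was 0.0603 for Gpx3 and 0.112 for Cat. Before adjustment that test gave a p under 0.05 for Gpx3, Cat and Gstm1, lower in SNc, and for Gpx4, higher in SNc. The share of all genes at that level was not counted, so nothing is read from it.

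Same-numbered SNc and VTA arrays had correlated deviations of 0.0475 to 0.254, over 0.1 in 5 of 7 numbers. Of the 7 VTA arrays, 4 correlated best with the SNc array of their own number. The labels do not say whether the numbers pair samples, and a shared source was not tested. The reported fit took no account of the numbers, so fits that do are given beside it. With the replicate block as a fixed term, SNc 7 was left out, as no VTA array has its number. In that fit 101 probe sets passed in all and 2 antioxidant ones, Gpx3 at -0.68 and Cat at -0.68. Leaving out SNc 7 without any block gave the same differences for both. As a random block over all arrays (correlation 0.122) 156 and 3 passed, with Y00404_s_at of Sod1 added (limma adjusted p = 0.0499).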
